A study of Mus musculus and Homo sapiens with 19 samples.

Results

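The collagen genes were taken as every gene symbol, case ignored, made of Col, a type number, the letter a and a chain number (Col4a1, COL6A2). The rule uses names only and no measured value. It found 45 distinct symbols among the 96161 of the series, and 44 of them in each of the 3 sets of counts, the knockdown table of 24421 genes, the MDA-MB-231 table of 57992 and the co-culture files of 55573. By class, 11 encode chains of fibrillar collagens, 6 chains of type IV, 6 chains of type VI, and 22 chains of other types. The series measured polyadenylated RNA in 19 libraries of cell lines.

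The knockdown compared 4T1, a mouse mammary tumour line, carrying a pLKO vector with a scramble shRNA (shSCR, 3 libraries) or with an shRNA against PHGDH (shPHGDH, 3 libraries). PHGDH is the first enzyme of serine synthesis. The human line MDA-MB-231, from a breast cancer, was given as a control (3 libraries) or after transduction with PHGDH cDNA in pLHCX (3 libraries). The co-culture set had 1 library per condition: 4T1, EMT6.5 (a further mouse mammary tumour line) and Bend3 (a mouse endothelial line), each alone, and the tumour and Bend3 cells of a 4T1 and of an EMT6.5 co-culture, parted by FACS before RNA extraction. All values come from cells in culture, and the labels do not say whether libraries of a group came from separate cultures, so p-values speak only of the spread among libraries, which may be technical.

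Collagens are trimeric proteins wound into a triple helix, rich in glycine, proline and hydroxyproline. Fibrillar collagens build the rope-like fibres of connective tissue and tumour stroma, type IV builds the sheet of basement membranes on which epithelium and endothelium sit, and type VI builds beaded filaments between cells and that sheet. The chains are hydroxylated and folded in the endoplasmic reticulum, exported in enlarged carriers, trimmed outside the cell and cross-linked by lysyl oxidases. Endothelial cells make type IV chains in culture, and fibroblasts and pericytes are the main makers of fibrillar and type VI chains in tissue. RNA levels, not protein, were measured here. In these bulk libraries, fewer cells of a type and less RNA per cell cannot be told apart.

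Pairs of chains that make 1 protein often lie side by side in the genome, and 4 such genes are shown here. Col6a2 and Col6a1 lie on the same strand of chromosome 10, 85.2 kb apart, and Col4a6 and Col4a5 start head to head on chromosome X, with 1.31 kb between their starts (GENCODE vM21, GRCm38). RefSeq start-site windows of 300 bases were available for 35 mouse collagen genes. The stretches of those windows that lie outside both annotations of the gene are shown 5′ to 3′ on the gene's strand (RefSeq, GRCm38.p6), since Col4a5 and Col4a6 both fell in the knockdown and Col6a1 and Col6a2 were both higher in co-cultured tumour cells. They cover chr10:76726169-76726294 (Col6a1, minus strand), chr10:76623631-76623880 (Col6a2, minus), chrX:141475169-141475369 (Col4a5, plus) and chrX:141474096-141474326 (Col4a6, minus). Capitals mark matches to 4 motifs searched on both strands, namely TATAAA, the core promoter box, CCAAT, the box bound by NF-Y, GGGCGG, the box bound by Sp1, and TGANTCA, the AP-1 motif.
Col6a1: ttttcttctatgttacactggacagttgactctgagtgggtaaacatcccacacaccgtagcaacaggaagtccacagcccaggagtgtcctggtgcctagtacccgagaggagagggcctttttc
Col6a2: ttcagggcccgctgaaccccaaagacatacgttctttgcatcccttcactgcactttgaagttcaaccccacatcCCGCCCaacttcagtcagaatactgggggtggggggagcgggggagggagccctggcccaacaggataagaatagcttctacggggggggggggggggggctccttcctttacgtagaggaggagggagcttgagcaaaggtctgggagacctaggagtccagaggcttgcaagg
Col4a5: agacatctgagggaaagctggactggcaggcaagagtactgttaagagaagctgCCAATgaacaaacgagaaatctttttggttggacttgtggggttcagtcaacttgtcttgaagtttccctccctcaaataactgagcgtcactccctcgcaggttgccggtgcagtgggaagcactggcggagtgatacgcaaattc
Col4a6: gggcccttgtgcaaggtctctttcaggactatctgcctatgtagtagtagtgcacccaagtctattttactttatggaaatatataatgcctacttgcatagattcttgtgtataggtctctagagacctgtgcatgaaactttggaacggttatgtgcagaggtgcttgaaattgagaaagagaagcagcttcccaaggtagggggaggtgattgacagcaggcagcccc
The Col6a2 stretch held 1 GGGCGG, on its reverse strand, and the Col4a5 stretch 1 CCAAT. Among all 32851 windows, cut to the same first bases, 32.7% held GGGCGG at the length of Col6a2 and 28.6% held CCAAT at the length of Col4a5. The Col6a1 and Col4a6 stretches held no match to these letters.

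Gene counts per library were 12.7 M to 20.5 M in the knockdown, 19.5 M to 23.8 M in MDA-MB-231 and 4.27 M to 7.67 M in co-culture. Counts given to no gene were 60.2% to 66.0% of all counts in co-culture, and alignments that were not unique 48.2% to 55.3%. In MDA-MB-231 these were 14.3% to 15.2% and 3.54% to 3.70%, and the knockdown counts held no such lines. Levels are given as CPM, counts scaled to a library total of 1 M. A count of 3, the limit that a count of 0 allows, equals 0.126 to 0.236 CPM in the replicated experiments and 0.391 to 0.703 CPM in co-culture. Phgdh fell in the knockdown, from 170, 175 and 165 CPM in shSCR to 20.21, 20.01 and 21.5 CPM in shPHGDH. In MDA-MB-231, PHGDH ran against the label. Controls had 15.8, 16.0 and 18.5 CPM of it, and the libraries labelled PHGDH-overexpressing had 5.88, 4.44 and 5.56 CPM (log2 fold change -1.61), so the latter are named by their label throughout. The control libraries are named SCR in the counts and were matched to the controls by number. Were the 2 groups exchanged, every direction given for MDA-MB-231 would reverse. Of 12 epithelial markers, 11 had at least 1 CPM in every shSCR and shPHGDH library. EMT6.5 alone had the keratins Krt18 (407 CPM), Krt7 (250 CPM), Krt8 (163 CPM), Krt14 (12.6 CPM) and Krt19 (2.61 CPM), with Krt5 at 0. It had Cldn4 at 52.7 CPM, but Epcam, Cdh1, Cldn7, Esrp1 and Ovol1 at 0 to 0.261 CPM. All 12 endothelial markers were above 1 CPM in Bend3 alone (sum 9816 CPM). Of these, 9 were at 1 CPM or more in 4T1 alone (sum 80.1 CPM) and 10 in EMT6.5 alone (sum 132 CPM).

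Collagen genes changed in both directions in the knockdown, by class and within class. Fibrillar Col5a1 and Col27a1 rose, the basement membrane pair Col4a1 and Col4a2 rose slightly, and the linked pair Col4a5 and Col4a6 and the type VI chain Col6a1 fell. Of 44 collagen genes, 5 had 0 counts in all 6 libraries (Col13a1, Col19a1, Col25a1, Col26a1 and Col28a1), and 18 passed the filter on low counts. The other 21 stayed under 1 CPM in every library, the highest at 0.739 CPM. Of the 18 tested, 8 were called higher and 7 lower in shPHGDH at a Benjamini-Hochberg adjusted p under 0.05 by edgeR's quasi-likelihood test, and 3 were not called. Over all 11568 genes tested, 59.7% were called, 30.1% higher and 29.6% lower. The median log2 fold change was -0.01 over the collagen genes tested and -0.01 over all genes. Fibroblast and pericyte markers, which mark the usual makers of fibrillar chains, summed to 5.64 to 8.19 CPM in shSCR and 8.74 to 9.73 CPM in shPHGDH over 8 genes, of which Pdgfra alone passed 1 CPM and Lum was at 0 in all 6 libraries. Endothelial markers summed to 4.79 to 5.43 and 5.91 to 7.32 CPM over 12 genes, and leukocyte markers to 9.25 to 10.8 and 13.2 to 15.4 CPM over 6. Only shSCR replicates 1 and 2 were sequenced in lane 5, so arm and lane partly coincided. The marker sums were not adjusted for lane. Epithelial markers moved as well. Of 12, 8 were lower in every shPHGDH library than in any shSCR library, among them Esrp1, a splicing regulator of epithelium (from a mean of 252 to 90.2 CPM), the tight junction gene Cldn7 (130 to 46.3 CPM), Krt19 (132 to 65.8 CPM), E-cadherin Cdh1 (869 to 560 CPM) and Epcam (359 to 241 CPM). Krt8 (671 to 818 CPM) and Krt18 (916 to 1308 CPM) were higher without overlap, Ovol1 overlapped and Krt5 was at 0, and the summed level was 4619 to 4760 CPM in shSCR and 4115 to 4221 CPM in shPHGDH. The share of all genes without overlap was not counted, so the count of 8 does not set these markers apart from other genes. The part of these markers in the collagen results was not tested.

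Col5a1 (chromosome 2, 27886425 to 28039514, plus strand, GRCm38) encodes a chain of type V collagen, which limits the width of type I fibrils. Its level was 15.8, 16.0 and 14.97 CPM in shSCR and 38.8, 36.0 and 41.9 CPM in shPHGDH, so the groups did not overlap. The difference was 2.58-fold (log2 1.37, SE 0.069, edgeR adjusted p = 1.10e-15). Col27a1, a fibrillar chain of developing cartilage, was at 2.29, 2.42 and 1.69 CPM in shSCR and at 5.30, 6.14 and 4.73 CPM in shPHGDH, also without overlap (log2 1.37, SE 0.17). Col2a1, the chain of cartilage fibrils, went the other way, from 3.61, 3.30 and 3.43 CPM to 0.308, 0.236 and 0.244 CPM (log2 -3.63, SE 0.29, edgeR adjusted p = 1.64e-11). Its shPHGDH level rests on 13 counts over the 3 libraries. Col1a1, the main chain of type I collagen, was near 1 CPM in both arms, at 0.833, 0.471 and 0.738 against 1.05, 1.26 and 1.27 CPM (log2 0.85, edgeR adjusted p = 0.0231). The call was lost with DESeq2 (adjusted p = 0.141), without 1 library of either arm (shSCR replicate 2, 0.127, or shPHGDH replicate 3, 0.0817) and when the sequencing lane entered the edgeR model (0.182). Col11a2, a minor chain of cartilage fibrils, was not called, at 1.18, 1.24 and 1.58 against 0.863, 0.551 and 1.07 CPM (log2 -0.59, adjusted p = 0.0880). Summed over the class, fibrillar chains were at 24.01 ± 0.232 CPM in shSCR and 48.0 ± 3.02 CPM in shPHGDH (SD, n = 3 each). Of these sums, Col5a1 alone made up 15.6 and 38.9 CPM, so their difference was mainly that of Col5a1.

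Type IV chains, the base of basement membranes, split into pairs by direction. Col4a1 and Col4a2, the chains of the common type IV trimer, start head to head on chromosome 8 with 22 bases of their first exons shared. Col4a1 was at 561, 563 and 552 CPM in shSCR and at 618, 619 and 635 CPM in shPHGDH (log2 0.20, SE 0.021, edgeR adjusted p = 5.54e-09). Col4a2 was at 368, 366 and 361 against 397, 398 and 404 CPM (log2 0.17, SE 0.024). Neither pair of groups overlapped, and the rises were 1.15-fold and 1.13-fold. Over the tested genes of chromosome 8, the median log2 fold change was -0.25. Relative to that median the differences were 0.45 and 0.42. Per kilobase of transcript, Col4a1 was 1.488 to 1.499 times the level of Col4a2 in shSCR and 1.52 to 1.53 times in shPHGDH.

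Col4a5 and Col4a6, the chains that form a separate type IV trimer in the basement membranes of skin and smooth muscle, fell. Col4a5 (chromosome X, 141475385 to 141689234) was at 62.7, 58.3 and 61.8 CPM in shSCR and at 19.5, 23.0 and 22.3 CPM in shPHGDH, a 2.75-fold difference without overlap (log2 -1.46, SE 0.059, edgeR adjusted p = 8.32e-18). Col4a6 (141165403 to 141474076) was at 5.97, 5.95 and 5.01 against 0.924, 1.18 and 1.37 CPM, a 4.63-fold difference (log2 -2.21, SE 0.19, edgeR adjusted p = 5.34e-11). The tested genes of chromosome X had a median of -0.02. Col4a3 and Col4a4, the other linked pair, stayed under 0.5 CPM in all 6 libraries and were not tested.

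Of the type VI genes, Col6a1 (chromosome 10, 76708792 to 76726168), a chain of all type VI filaments, passed 1 CPM. It was at 16.2, 19.3 and 18.6 CPM in shSCR and at 5.67, 6.06 and 6.53 CPM in shPHGDH (2.87-fold lower, log2 -1.52, SE 0.098, edgeR adjusted p = 1.83e-13). Its partner chain Col6a2 was under 1 CPM in all 6 libraries and was not called (log2 0.06, SE 0.39), and Col6a3 to Col6a6 were at 0.315 CPM or less.

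Of the other types, 4 members changed by 1.38-fold or less, 2 in each direction. Col8a1 (chromosome 16, 57624258 to 57754737), a short-chain collagen of vessel walls and the eye, rose from 232, 229 and 232 CPM to 300.5, 319 and 311 CPM (log2 0.47, SE 0.028, edgeR adjusted p = 4.70e-14). Col7a1 (chromosome 9, 108953586 to 108984875), the anchoring fibril chain that ties epithelial basement membrane to the stroma, rose from 322, 325 and 328 CPM to 405, 394 and 426 CPM (log2 0.37, SE 0.027, edgeR adjusted p = 3.81e-12). Groups did not overlap for either gene. The fibril-associated chains Col12a1 (log2 -0.25, from a mean of 73.8 to 60.4 CPM) and Col16a1 (log2 -0.24, from 153 to 126 CPM) fell. Col16a1 lies on chromosome 4, whose median was -0.22, and differed from it by -0.02. Col7a1 and Col12a1 lie on chromosome 9, whose median was 0.14, and differed from it by 0.23 and -0.39. Col18a1, the basement membrane chain from which endostatin is cut, was not called (log2 -0.07, adjusted p = 0.0606). It was at 287, 287 and 283 CPM in shSCR and at 249, 258 and 284 CPM in shPHGDH, where replicate 3 alone reached the shSCR range, and without that library the gene was called lower (log2 -0.13, edgeR adjusted p = 0.00122).

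The remaining calls were of scarce genes and less firm. Col17a1, a membrane-spanning chain of hemidesmosomes, was at 0.764, 1.24 and 1.16 against 1.85, 1.496 and 1.61 CPM (log2 0.67, adjusted p = 0.0304, edgeR). Its call was lost with DESeq2 (adjusted p = 0.160), without shSCR replicate 1 (0.124), without shPHGDH replicate 1 (0.106) and without shPHGDH replicate 3 (0.0578). Col20a1 was at 1.18, 1.18 and 1.00 against 0.616, 0.473 and 0.341 CPM (log2 -1.20, adjusted p = 0.00489, edgeR), and was not called by DESeq2 (adjusted p = 0.0547). Lane 5 held shSCR replicates 1 and 2, and lane 6 held the other 4 libraries. With the lane in the model, Col17a1 (adjusted p = 0.213) and Col20a1 (0.0781) were not called.

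**Figure D1:**
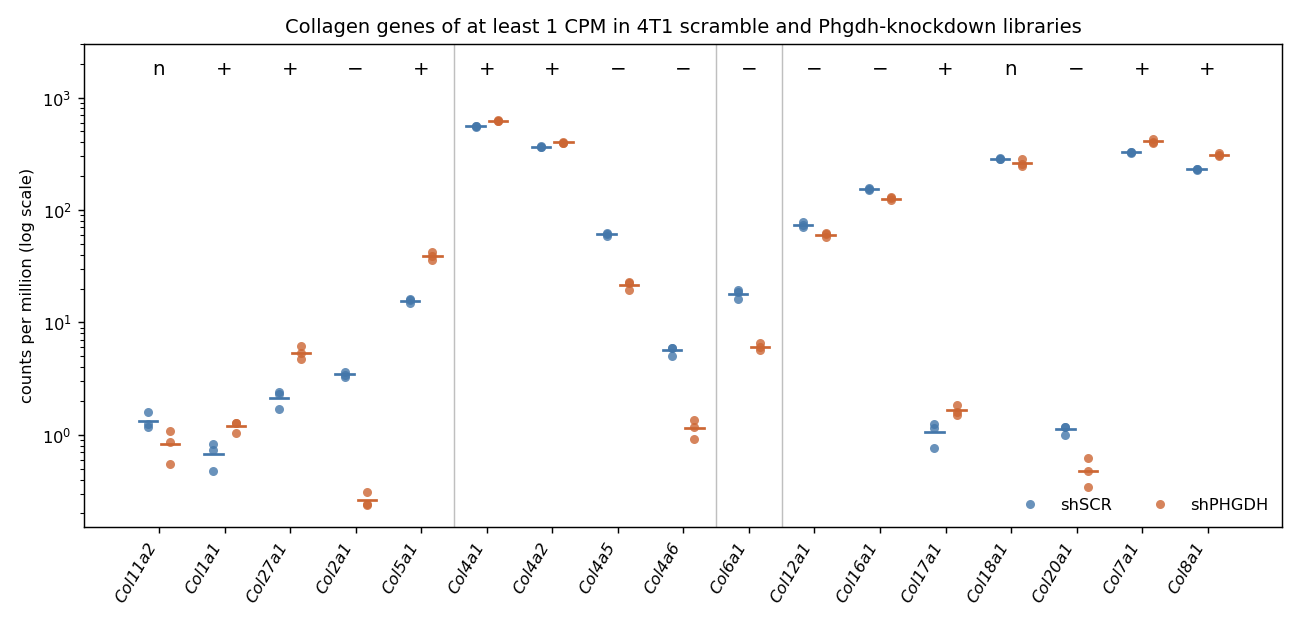
CPM on a log scale of the 17 collagen genes whose mean reached 1 CPM in either arm of the 4T1 knockdown; points are libraries, bars are means of 3, grey lines part fibrillar, type IV, type VI and other genes, and + , − and n above mark genes called higher, lower or not called. Col5a1 sits at 14.97 to 16.0 CPM in shSCR and 36.0 to 41.9 CPM in shPHGDH, and Col4a5, Col4a6 and Col6a1 sit lower in all 3 shPHGDH libraries.

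The genes that build collagen were mostly higher in shPHGDH. Of 42 genes of a collagen biosynthesis list, 34 were tested, 22 rose and 2 fell, and their median log2 fold change was 0.19 against -0.01 over all genes. That is 70.6% called, 64.7% higher and 5.88% lower, beside 59.7%, 30.1% and 29.6% of all genes. Of 17 tested genes for hydroxylation, glycosylation and chaperoning, 12 rose, among them P4ha2, a catalytic subunit of prolyl 4-hydroxylase (log2 1.71, SE 0.097, from a mean of 5.61 to 17.8 CPM), P3h3, a prolyl 3-hydroxylase (0.68), and Plod1, a lysyl hydroxylase (0.65). Another catalytic subunit, P4ha3, fell (log2 -1.14), from 4.30 to 1.82 CPM. Of 8 tested genes for processing and cross-linking, 6 rose and none fell. They included Sparc, a collagen-binding matricellular protein (log2 1.70, SE 0.037, from 59.0 to 186 CPM), and Bmp1, the procollagen C-proteinase (log2 0.72, from 208 to 333 CPM). Bmp1 lies on chromosome 14, whose tested genes had a median of 0.51, and was 0.22 above it. Of 5 export genes tested, 2 rose. Of the 4 genes of proline synthesis, Aldh18a1 and Pycrl rose and Pycr1 fell.

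Receptors and proteases for collagen also rose more often than they fell. Of 18 listed genes, 10 were tested, 6 rose and 1 fell, with a median log2 fold change of 0.77. The 7 called were 70% of those tested, beside 59.7% of all genes. Itga2, the collagen-binding integrin chain of epithelium and platelets, rose from a mean of 120 to 262 CPM (log2 1.17). Mmp9, a gelatinase that cuts type IV and denatured collagen, rose from 42.0 to 223 CPM (log2 2.45). Mmp14, a membrane-bound collagenase, rose (0.69), and was 0.18 above the median of the same chromosome. Prodh, which starts the breakdown of proline, rose (0.85). The discoidin receptor Ddr1 fell (log2 -0.21), a call that the libraries of lane 6 alone did not give (log2 -0.15, edgeR adjusted p = 0.0607). Its relative Ddr2, at 239 and 234 CPM, was not called.

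In MDA-MB-231, the collagen genes differed again in both directions. COL6A1, COL18A1 and COL9A2 were higher in the libraries labelled PHGDH-overexpressing, while COL8A1, COL12A1, COL27A1 and COL6A3 were lower. Of 44 collagen genes, 24 passed the filter, of which 10 were called higher, 5 lower and 9 not called. Over all 17663 genes tested, 44.5% were called, 21.6% higher and 22.9% lower. With library totals in place of TMM scaling, 38.4% of all calls were higher, against 48.5% with TMM. The median log2 fold change was 0.13 over the collagen genes tested and -0.01 over all. COL22A1, COL5A3 and COL6A5 had 0 counts in all 6 libraries, and the other 17 not tested were at 0.461 CPM or less. Fibroblast and pericyte markers summed to 14.7 to 17.8 CPM in the controls and 23.3 to 25.2 CPM in the labelled libraries, and epithelial markers to 1324 to 1346 and 1899 to 2125 CPM. Of the 12 epithelial markers, 5 were higher without overlap, among them KRT7 (178 to 399 CPM), and 2 lower, EPCAM (10.9 to 7.01 CPM) and CLDN7 (16.4 to 11.4 CPM). Here too the share of all genes without overlap was not counted, so the counts of 5 and 2 do not set these markers apart. The part of these markers was not tested.

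Type VI chains were unequal. In the controls COL6A1 was at 99.98, 96.3 and 92.8 CPM, and in the libraries labelled PHGDH-overexpressing at 137, 132 and 144 CPM, without overlap (log2 0.57, SE 0.061, edgeR adjusted p = 1.06e-07). COL6A2 was at 19.5, 21.3 and 21.1 against 20.4, 17.6 and 21.4 CPM, with overlap (log2 -0.00016, SE 0.092, adjusted p = 0.999). COL6A3, the long chain that ends each filament unit, was at 18.6, 17.6 and 16.0 against 11.7, 13.1 and 10.7 CPM (log2 -0.49, SE 0.10, edgeR adjusted p = 4.40e-04). All 3 chains enter the same type VI filament, and 1 rose, 1 fell and 1 was not called.

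Among type IV chains, COL4A5 rose from 10.1, 10.04 and 8.26 CPM to 12.02, 12.2 and 12.9 CPM (log2 0.44, SE 0.11, edgeR adjusted p = 0.00219). COL4A1 was called (log2 0.29, adjusted p = 0.0150, edgeR) although its groups overlapped, at 23.7, 20.8 and 20.1 against 28.1, 22.4 and 25.6 CPM. The call was lost without control replicate 2 (0.0638) or 3 (0.0710), and without labelled replicate 1 (0.107) or 3 (0.0510). COL4A2, its partner, was not called (log2 -0.02, means of 75.2 and 71.2 CPM), nor was COL4A4 (log2 -0.20, means of 1.49 and 1.24 CPM).

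No fibrillar chain was called higher. COL27A1 fell from 15.3, 14.2 and 13.6 CPM to 9.89, 8.89 and 9.03 CPM (log2 -0.58, SE 0.10, edgeR adjusted p = 1.02e-04). COL5A1 was not called (log2 0.15, adjusted p = 0.0598), with means of 104 and 110.5 CPM. Without labelled replicate 2 it was called higher (log2 0.20, edgeR adjusted p = 0.0166). COL1A1 was at 5.81, 6.46 and 5.02 against 5.37, 6.31 and 7.34 CPM, with overlap, and was not called. COL5A2 was called lower at a level near 1 CPM (log2 -1.17, adjusted p = 0.00946, edgeR), but not without labelled replicate 3 (0.0629) or with DESeq2 (0.0503).

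Of the other types, COL8A1 showed the lowest adjusted p of the collagen genes. Control libraries held 146, 133 and 128 CPM of it and the libraries labelled PHGDH-overexpressing 68.7, 72.9 and 64.5 CPM (1.89-fold lower, log2 -0.92, SE 0.067, edgeR adjusted p = 2.33e-10). COL12A1 was at 137, 116 and 109 against 90.5, 83.5 and 91.1 CPM (log2 -0.39, SE 0.074). COL18A1 rose from 67.0, 71.1 and 62.7 CPM to 90.2, 84.6 and 97.1 CPM (log2 0.50, SE 0.070), and COL9A2, a fibril-associated chain of cartilage, rose from 4.29, 4.66 and 3.40 CPM to 8.42, 8.51 and 9.44 CPM (log2 1.15, SE 0.14). None of these 4 had overlapping groups.

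COL13A1, a membrane-spanning chain, rose from 241, 245 and 236 CPM to 275, 268 and 258 CPM (log2 0.21, edgeR adjusted p = 0.00391), and COL17A1 rose (log2 0.42, means of 17.2 and 22.1 CPM). COL7A1 was called higher with overlapping groups (log2 0.32, adjusted p = 0.00722, edgeR), but not without control replicate 3 (0.0662) or labelled replicate 3 (0.0751). COL16A1 was called as well (log2 0.76, adjusted p = 0.0174, edgeR), with overlap, and lost the call without control replicate 2 (0.107) and without labelled replicate 1 (0.0549) or 3 (0.0907). COL8A2 was called higher (log2 2.53) below 1 CPM in every library, on 8 counts in the controls and 46 in the labelled libraries.

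**Figure D2:**
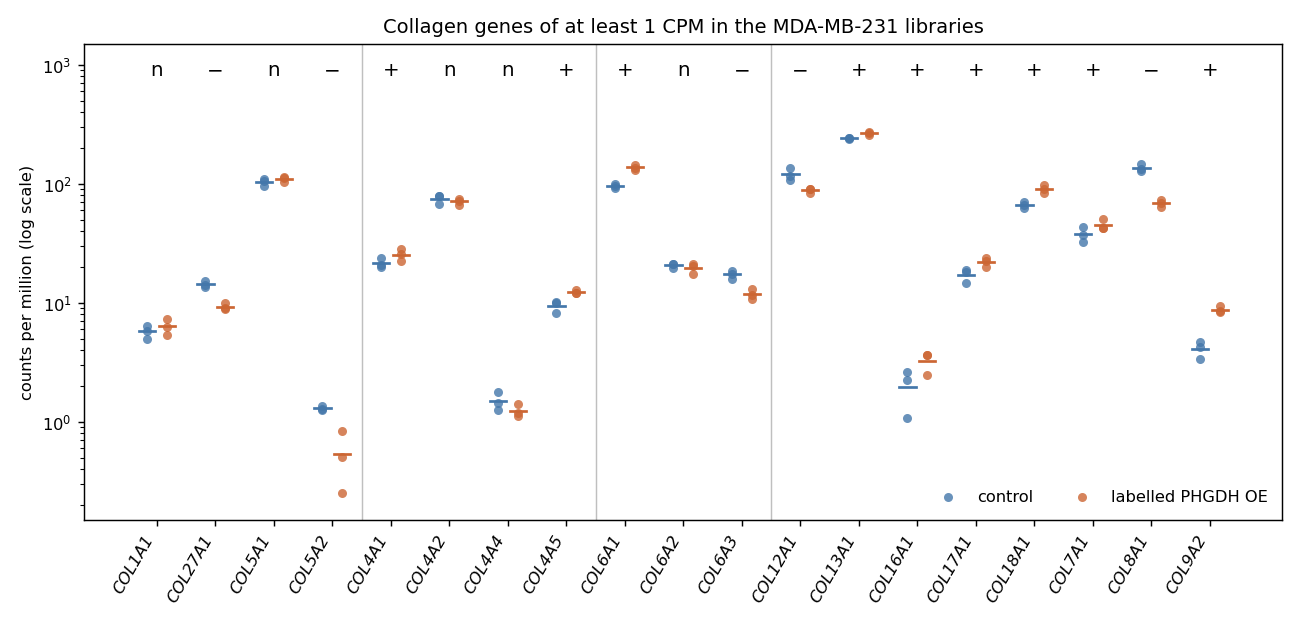
CPM on a log scale of the 19 collagen genes whose mean reached 1 CPM in either group of MDA-MB-231; points are libraries, bars are means of 3, grey lines part fibrillar, type IV, type VI and other genes, and + , − and n above mark genes called higher, lower or not called. COL8A1 sits at 128 to 146 CPM in the controls and 64.5 to 72.9 CPM in the libraries labelled PHGDH-overexpressing, and COL6A1 sits higher in all 3 of the latter.

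The biosynthesis list held 38 tested genes in MDA-MB-231, of which 15 were higher and 7 lower (median log2 fold change 0.15). That is 39.5% higher and 18.4% lower, beside 21.6% and 22.9% of all genes. SERPINH1, the collagen chaperone also called HSP47, rose from a mean of 167 to 256 CPM (log2 0.68, SE 0.059), and the prolyl 4-hydroxylase subunit P4HA3 rose from 6.29 to 11.3 CPM (log2 0.89). Cross-linking enzymes went the other way: LOX fell from 45.4 to 25.3 CPM (log2 -0.78, SE 0.075), and LOXL2 (log2 -0.36) and LOXL3 (log2 -0.41) fell as well, while LOXL1 and LOXL4 were not called. Of 10 tested receptor and protease genes, 1 rose and 6 fell (median log2 fold change -0.22), so 70% were called, beside 44.5% of all genes. The interstitial collagenase MMP1 fell from 117 to 5.33 CPM (log2 -4.40, SE 0.089), and the collagen-binding integrin chain ITGA10 from 11.3 to 6.35 CPM (log2 -0.78).

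**Figure D3:**
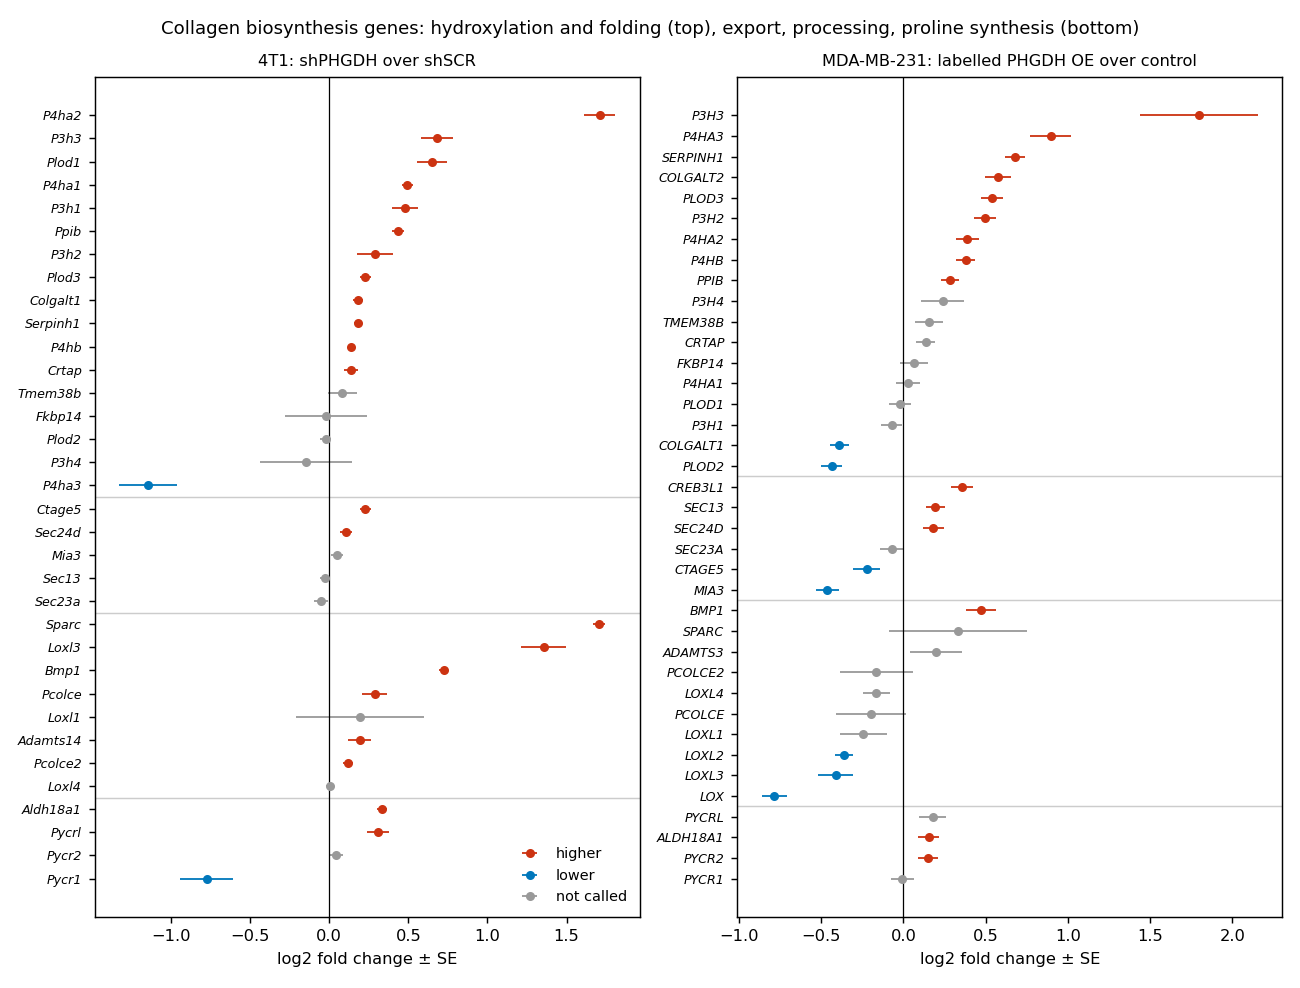
Log2 fold change with its standard error of each tested collagen biosynthesis gene in the 4T1 knockdown (34 genes, left) and MDA-MB-231 (38 genes, right), edgeR, coloured by call and ordered within hydroxylation and folding, export, processing, and proline synthesis. In 4T1, 22 genes lie right of 0 as called and 2 left; in MDA-MB-231, 15 and 7.

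The 3 lines of the co-culture set had different collagens when grown alone, read per kilobase of transcript so that genes can be compared. In 4T1, Col8a1 (119 CPM per kb), Col4a1 (47.0) and Col18a1 (30.5) led. In EMT6.5 the chains of type I collagen led, Col1a2 (300.2 CPM per kb) and Col1a1 (238), followed by Col8a1 (152). In Bend3 the order was Col8a1 (232), Col4a1 (215), Col18a1 (185), Col4a2 (124) and Col13a1 (110.2). As summed CPM, fibrillar chains made up 69.3% of the collagen counts of EMT6.5 alone, 3.14% of 4T1 alone and 2.23% of Bend3 alone. Type IV chains made up 31.4% in 4T1, 1.21% in EMT6.5 and 44.7% in Bend3. Of the 44 collagen genes, 29 reached 1 CPM in at least 1 of the 7 libraries and 6 had 0 counts in all (Col10a1, Col25a1, Col26a1, Col6a6, Col9a1 and Col9a2). With 1 library per line, these levels have no replicate check.

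Sorted libraries held RNA of genes that the host lacked when alone and the partner had, read here as carried-over partner RNA. This sets how far a level can be read, and whether the RNA came from partner cells was not tested. The share was estimated from genes that the partner had and the host lacked when alone, as the median of their level in the sorted host over that in the sorted partner. It was 1.38% of the partner's level in 4T1, 0.582% in EMT6.5, 2.16% in Bend3 sorted from 4T1 and 1.38% in Bend3 sorted from EMT6.5, over 78 to 127 genes. The middle 50% of genes spanned 0.566% to 2.30% in 4T1, 0.137% to 1.36% in EMT6.5, 1.20% to 3.16% in Bend3 sorted from 4T1 and 0.852% to 2.25% in Bend3 sorted from EMT6.5. For each collagen gene, that share of the partner's level is given below as its carried-over level.

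Type VI chains were higher in both tumour lines after co-culture with Bend3. In 4T1, Col6a1 was at 16.5 CPM alone and 115 CPM with Bend3, a 6.99-fold ratio (95% exact counting interval 5.44 to 9.09), and Col6a2 went from 1.39 to 19.9 CPM (14.3-fold, 6.30 to 40.02). In EMT6.5, Col6a1 went from 1.56 to 607 CPM (388-fold, 222 to 752) and Col6a2 from 0.261 CPM, which is 2 counts, to 333 CPM (1277-fold, 353 to 10552). The co-cultured Bend3 cells themselves had 6.30 and 7.65 CPM of Col6a1 and 0.170 and 3.82 CPM of Col6a2. The carried-over level was thus 0.0866 CPM of Col6a1 in 4T1 and 0.0445 CPM in EMT6.5, and 0.00234 and 0.0222 CPM of Col6a2. Intervals here and below cover counting error only. Each line has 1 library per condition, so a difference within a line has no replicate check, and no test was run over the lines.

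Col6a3, the third chain of the filament, was at 2.74 CPM in EMT6.5 alone and 7.68 CPM with Bend3 (2.81-fold, 1.59 to 5.06). In 4T1 it was at 0.232 and 1.64 CPM, too low to be compared. In EMT6.5 with Bend3, Col6a1 reached 148 CPM per kb, Col6a2 84.3 and Col6a3 0.760, where Col1a2, the highest collagen gene, had 184. Type VI chains as a class came to 21.7% of collagen CPM in that library, against 0.116% in EMT6.5 alone, and to 9.21% in 4T1 with Bend3, against 1.23% alone. Among markers of fibroblasts and pericytes in 4T1, Pdgfra was higher, and the markers that were lower were scarce. The summed level of the 8 genes was 9.76 CPM in 4T1 alone and 39.1 CPM with Bend3, through Pdgfra alone (4.65 and 37.5 CPM). Cspg4 (2.56 and 0.703 CPM), Thy1 (1.39 and 0.937), Fap (0.697 and 0) and Pdgfrb (0.465 and 0) were lower there. A count of 3 equals 0.697 CPM in 4T1 alone and 0.703 CPM with Bend3. Fap and Pdgfrb did not exceed that level, so their direction cannot be read, and no interval was formed for Cspg4 and Thy1. In EMT6.5 the sum was 77.9 CPM alone and 171 CPM with Bend3, mainly Pdgfrb (24.8 and 85.8) and Cspg4 (43.0 and 72.1). Dcn, Lum and Rgs5 had 0 counts in all 7 libraries, and Fap and Thy1 had 0 in both EMT6.5 libraries. The part of these markers in the type VI result was not tested.

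Col7a1 and Col8a1 were lower in both tumour lines with Bend3. Col7a1 was at 38.1 CPM in 4T1 alone and 11.7 CPM with Bend3 (3.25-fold lower, 2.36 to 4.56), and at 88.8 and 22.0 CPM in EMT6.5 (4.04-fold lower, 3.28 to 5.02). Col8a1 was at 606 and 197 CPM in 4T1 (3.08-fold lower, 2.85 to 3.34) and at 777 and 382 CPM in EMT6.5 (2.03-fold lower, 1.93 to 2.15). Co-cultured Bend3 had 1196 and 1012 CPM of Col8a1, so the carried-over level was 16.5 CPM in 4T1 and 5.89 CPM in EMT6.5. With it taken off, the log2 ratio of Col8a1 in 4T1 was -1.74 in place of -1.62.

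A member was counted as changed in co-culture when its log2 ratio on the TMM scale reached 2-fold with at least 5 CPM in either library. In 4T1, 12 collagen genes reached that level, and 4 were higher and 2 lower. Of all 10760 genes at that level, 27.3% were past 2-fold, 14.5% higher and 12.8% lower. In EMT6.5, 16 reached the level, 5 higher and 2 lower, beside 13.2% of 10698 genes, 5.95% higher and 7.22% lower. The median log2 ratio was 0.49 over the collagen genes and -0.03 over all genes in 4T1, and 0.55 and -0.03 in EMT6.5. Both lines shared Col6a1 and Col6a2 among the higher (2 of 4 in 4T1, 2 of 5 in EMT6.5) and Col7a1 and Col8a1 among the lower (2 of 2 in each).

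The other changes differed between the lines. In 4T1, Col4a5 was higher (9.76 to 27.4 CPM, 2.81-fold, 1.96 to 4.10), as was Col1a2 at a low level (1.63 to 5.39 CPM, 3.31-fold, 1.38 to 9.14). In EMT6.5, Col18a1 was higher (114 to 286 CPM, 2.51-fold, 2.30 to 2.73), and so was Col5a3, a minor type V chain (34.1 to 69.1 CPM, 2.02-fold, 1.71 to 2.39). Col18a1 in 4T1, at 171 and 329 CPM, was just under the rule (1.93-fold, 1.76 to 2.11). The differences between the lines were not tested.

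Type I chains of EMT6.5 were lower with Bend3 but under 2-fold: Col1a1 was at 1414 and 777 CPM (1.82-fold lower, 1.75 to 1.89) and Col1a2 at 1606 and 985 CPM (1.63-fold lower, 1.58 to 1.69). Col12a1, which sits on type I fibrils, was at 228 and 353 CPM (1.55-fold, 1.45 to 1.66), and Col27a1 at 51.4 and 29.4 CPM. Col4a1, at 17.2 and 28.8 CPM, and Col4a2, at 7.56 and 13.7 CPM, were under 2-fold in EMT6.5. At the median share of 0.582%, carried-over RNA amounted to 38.4% and 47.9% of their co-culture level. With it taken off the co-culture library only, their log2 ratios were 0.06 and -0.07. The quartiles of that share were 0.137% and 1.36%, and its other estimates ran from 0.0%, where nothing would come off, to 1.65%. Ratios were not formed at these shares, so whether carried-over RNA made up the higher levels of Col4a1 and Col4a2 was not tested. Endothelial markers summed to 132 CPM in EMT6.5 alone and 143 CPM with Bend3, and nothing was taken off the library alone. The source of those markers was not tested. Col16a1 (179 and 211 CPM), Col5a1 (170 and 205 CPM) and Col4a5 (32.6 and 44.6 CPM) in EMT6.5 were within 1.5-fold. In 4T1, so were Col4a1 (311 and 359 CPM), Col4a2 (141 and 165 CPM), Col16a1 (128 and 186 CPM), Col5a1 (37.6 and 40.8 CPM) and Col1a1 (4.41 and 6.09 CPM).

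**Figure D4:**
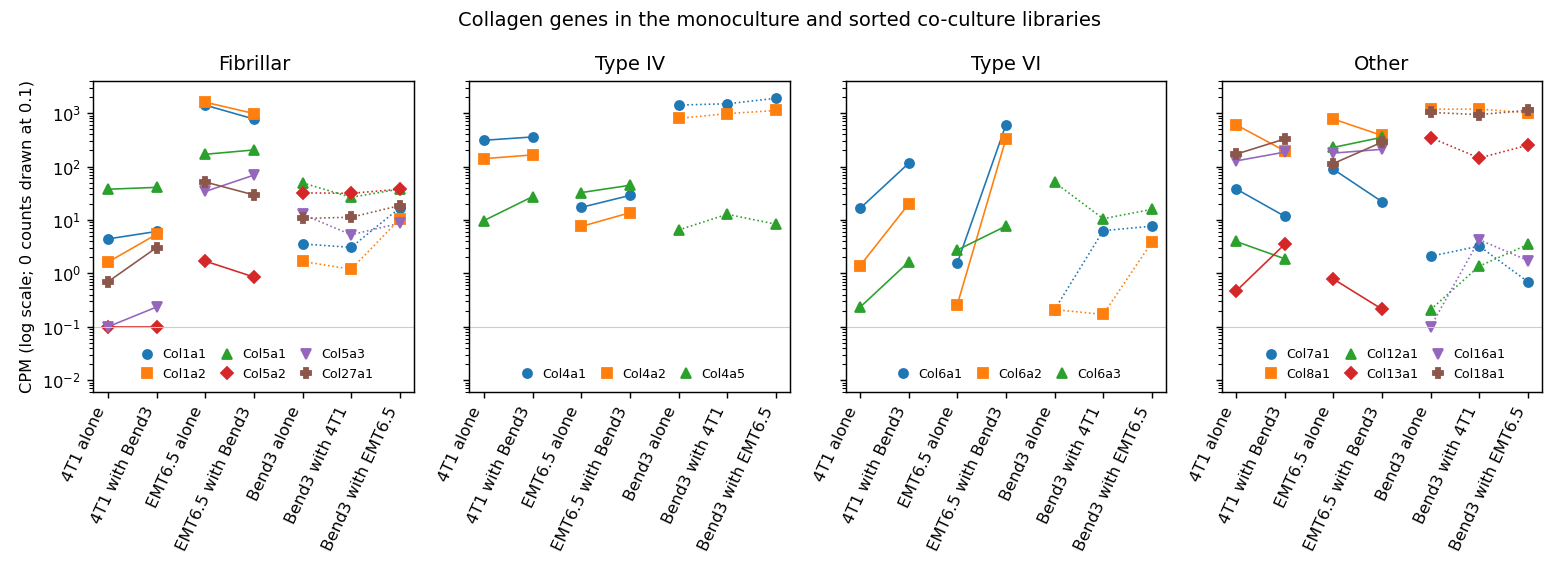
CPM on a log scale (0 counts drawn at 0.1) of the main fibrillar, type IV, type VI and other collagen genes in the 7 libraries of the co-culture set; each point is 1 library, and lines join the libraries of 1 line. Col6a1 and Col6a2 climb in both tumour lines, to 607 and 333 CPM in EMT6.5 with Bend3, while Col7a1 and Col8a1 drop.

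Bend3 cells kept most collagen levels within 2-fold of their monoculture, and Col6a3 was the member lower with both partners. Both comparisons use the same Bend3 library alone. Col6a3 was at 50.6 CPM alone, 10.6 CPM with 4T1 (4.796-fold lower, 3.62 to 6.45) and 15.8 CPM with EMT6.5 (3.20-fold lower, 2.51 to 4.12). With 4T1, Col13a1 was also lower (349 and 145 CPM, 2.41-fold, 2.22 to 2.62) and so was Col5a3 (12.8 and 5.28 CPM, 2.42-fold, 1.54 to 3.86). With EMT6.5 these were at 251 and 8.69 CPM, under 2-fold. Of 15 collagen genes at 5 CPM or more with 4T1, 1 was higher and 3 lower, beside 5.97% of all genes at that level past 2-fold (3.83% higher, 2.14% lower). With EMT6.5, 17 reached the level, 3 were higher and 1 lower, beside 5.25% of all genes (3.04% higher, 2.21% lower). The median log2 ratio was 0.05 over the collagen genes and 0.04 over all genes with 4T1, and 0.21 and 0.02 with EMT6.5.

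Of the 5 leading chains of Bend3, 4 stayed within 1.5-fold of their level alone with both partners, and Col13a1 with EMT6.5 but not with 4T1. Col4a1 was at 1419, 1501 and 1900 CPM alone, with 4T1 and with EMT6.5, Col4a2 at 797, 981 and 1123 CPM, Col8a1 at 1183, 1196 and 1012 CPM, and Col18a1 at 1033, 938 and 1132 CPM. Their largest ratio was 1.41-fold, for Col4a2 with EMT6.5. Col5a2 was at 32.2, 31.5 and 37.7 CPM, Col5a1 at 49.6, 26.6 and 37.9 CPM and Col27a1 at 10.7, 11.2 and 18.6 CPM. Col4a5 with 4T1 (6.49 and 12.8 CPM, 1.97-fold) and Col20a1 with EMT6.5 (3.56 and 7.47 CPM, log2 0.99 on the TMM scale) lay just under the rule. Col19a1 (11.3, 12.6 and 11.8 CPM) and Col23a1 (7.95, 6.30 and 6.26 CPM) were within 1.5-fold.

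The 4 higher values in Bend3 were low, and the carried-over levels estimated for them came to part of the value or more than it. Whether these reads came from partner cells was not tested. With EMT6.5, Col6a1 was at 0.209 CPM (1 count) in Bend3 alone and 7.65 CPM sorted, where the carried-over level was 8.39 CPM at the median share and 5.17 to 13.7 CPM over the middle 50% of genes. Col1a2 was at 1.67 and 10.4 CPM, with 13.6 CPM carried over at the median share and 8.39 to 22.18 CPM over that range. No ratio was formed for these after taking the median level off. Col1a1 was at 3.56 and 16.9 CPM, with 10.7 CPM carried over (6.62 to 17.5 CPM over the range), and without it was under 2-fold (log2 0.72). For all 3 the level seen lay within the carried-over range. At the lower end of that of Col1a1, the 10.2 CPM left were still 2.88 times the level alone. With 4T1, Col6a1 was at 6.30 CPM, of which 2.49 CPM was the carried-over level, or 1.38 to 3.64 CPM over the range. The 3.81 CPM left was 18.2 times the level alone, which was 1 count, and 12.7 to 23.5 times over the range. It is under the level of 5 CPM, and through that level alone no higher member remained with 4T1 at the median share. None remained with EMT6.5 either.

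**Figure D5:**
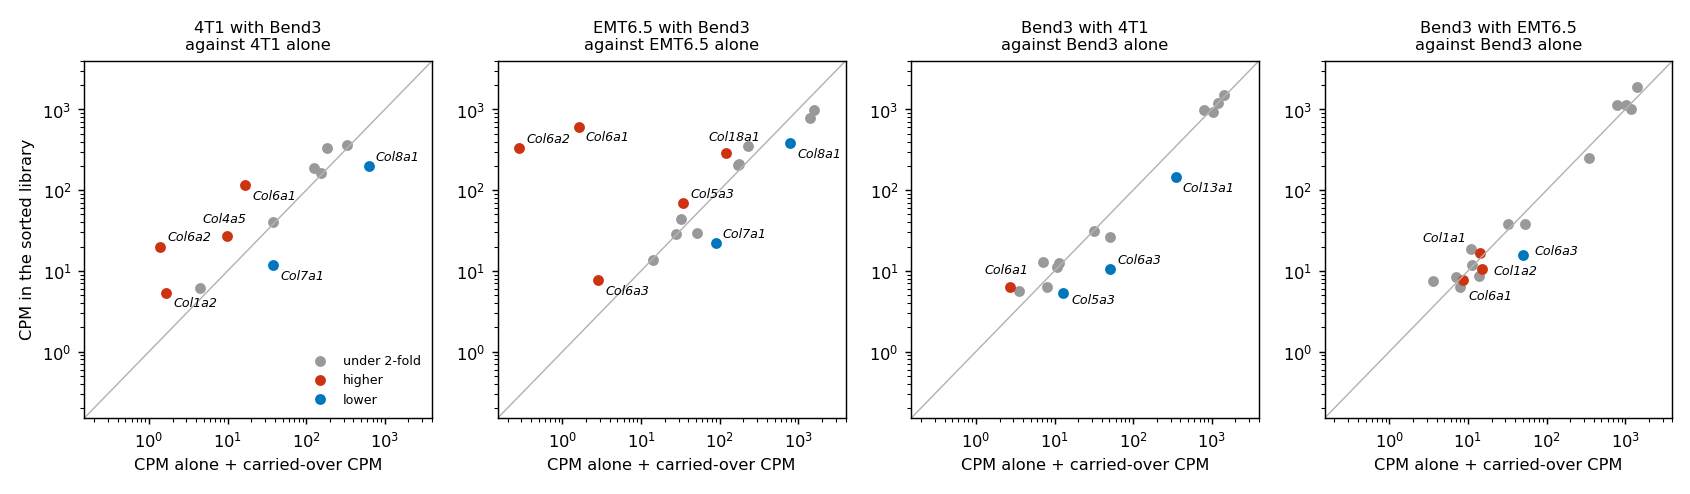
CPM in each sorted library against CPM in the same line alone plus the carried-over CPM, both on log scales, for collagen genes with at least 5 CPM in either library; red and blue mark genes counted as higher or lower at 2-fold and grey the rest, and the line marks equal values. Col6a1 and Col6a2 stand far above the line in both tumour lines, while the higher genes of Bend3 with EMT6.5 lie near it.

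Of the biosynthesis list, 28 genes reached 5 CPM in 4T1, of which 2 were higher and 4 lower with Bend3. That is 21.4% changed, beside 27.3% of all genes at that level. In EMT6.5, 2 of 37 were higher and 2 lower (10.8%, beside 13.2%). In Bend3, 1 of 31 was higher with 4T1 (3.23%, beside 5.97%) and 1 of 30 with EMT6.5 (3.33%, beside 5.25%). Fewer receptor and protease genes reached the level. In 4T1, 4 of 10 were higher and 2 lower (60%, beside 27.3%), and in EMT6.5 2 of 9 were higher and 2 lower (44.4%, beside 13.2%). In Bend3, 2 of 5 were higher with either partner, Ddr2 and Itga2, all under 10 CPM. Ddr2 was at 2.30 CPM alone, 6.98 CPM with 4T1 and 7.99 CPM with EMT6.5, with carried-over levels of 4.05 and 4.52 CPM, so that 2.93 and 3.47 CPM were left. Itga2 was at 2.72 CPM alone, 8.85 CPM with 4T1 and 7.65 CPM with EMT6.5. Its carried-over levels were 2.91 and 0.0677 CPM, so 5.94 and 7.58 CPM were left, 2.18 and 2.79 times the level alone. Pcolce, the biosynthesis gene higher with EMT6.5, was at 3.14 and 8.52 CPM, with 4.54 CPM carried over and 3.98 CPM left. Tmem38b, the biosynthesis gene higher with 4T1, was at 3.56 and 7.32 CPM, with 0.142 CPM carried over and 7.18 CPM left. These genes of Bend3 were named after their values were seen. In 4T1, Loxl3, a lysyl oxidase-like cross-linking enzyme (16.0 and 93.9 CPM, 5.86-fold, 4.53 to 7.68), and Crtap, a part of the prolyl 3-hydroxylation complex (10.7 and 26.9 CPM), were higher. Lower in 4T1 were Serpinh1 (575 and 254 CPM) and the proline synthesis genes Aldh18a1 (151 and 33.7 CPM) and Pycr1 (44.6 and 11.2 CPM). In EMT6.5, Loxl3 (33.8 and 71.7 CPM) and P3h3 (6.13 and 16.6 CPM) were higher, and P4ha2 (39.6 and 8.75 CPM) and Loxl1 (14.5 and 3.20 CPM) lower. Among the receptors, Itga1, a collagen-binding integrin chain, went from 4.18 to 207 CPM in 4T1 (49.4-fold, 31.1 to 83.8), of which 0.475 CPM was the carried-over level. Ddr1 was higher (48.8 and 98.4 CPM) and Ddr2 lower (486 and 187 CPM) in 4T1, Prodh was lower there (27.6 and 12.4 CPM), and Itga2 was lower in EMT6.5 (57.5 and 4.91 CPM). The collagenase Mmp13 was higher in both lines (4.18 and 13.4 CPM in 4T1, 4.04 and 17.1 CPM in EMT6.5).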

How the data were processed

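Raw gene counts were deposited; per the submitters' processing notes the authors used Trim Galore 0.5.0, HISAT2 2.1.0 and HTSeq on GRCm38 for mouse. Which step used which tool for the knockdown table, the human build and the strand setting of the counting are not given in the sources used here. Libraries were stranded mRNA, 50 bp single-end, per the labels' protocols. The knockdown table held 10 further library columns, which were not used here.

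Both replicated experiments were fitted with edgeR 4.0.16 (R 4.3.3, limma 3.58.1): TMM scaling, default low-count filter, quasi-likelihood F-test on group alone, Benjamini-Hochberg adjustment over all genes tested. The fit was tested on simulated data. Printed CPM are counts over the library's gene total. Co-culture ratios have exact binomial 95% intervals, and log2 ratios used TMM CPM with a prior count of 2. Carried-over shares came from non-collagen genes at 50 CPM or above in the partner alone and not above 0.5 CPM in the host alone. CPM per kb used the longest coding transcript (GENCODE vM21). Alternatives were DESeq2 1.42.0, other scaling, no filter, lane, a replicate block, single libraries left out and, in co-culture, other levels, folds and carry-over estimates.

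Collagen genes were named from a mean of 1 CPM in either group, or 5 CPM in co-culture; listed genes when called at 1.5-fold or more (2-fold in co-culture) with 10 CPM, and others named beside a count were chosen after their values were seen. The members and lists were chosen with earlier results of these data known. Reads carried no molecular identifiers, so intervals cover counting error only. Of the mouse collagen genes named by these levels, Col4a1, Col4a2, Col5a1, Col7a1 and Col20a1 share exon bases with another annotated gene, so reads there are uncertain. Among those mentioned below these levels, Col4a3, Col6a4, Col6a6 and Col10a1 do so as well.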

Additional observations from a re-analysis of the deposited data

How the results depend on the processing

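The call was the same under every alternative run for 13 of 17 named collagen genes in the knockdown (13 alternatives) and for 14 of 19 in MDA-MB-231 (11 alternatives); the report gives the others. Leaving out 1 library at a time, the number of collagen genes called ranged from 14 to 16 and from 11 to 16. Replicate numbers did not pair the libraries: deviations of same-numbered libraries correlated at -0.05 to -0.00025 in the knockdown and at -0.02 to 0.04 in MDA-MB-231. With a replicate block, 15 collagen genes were called in each experiment (8 higher and 7 lower, 10 higher and 5 lower). Library totals moved the median of all genes by -0.04 and -0.06 (log2); with them Col18a1 was called lower in the knockdown (log2 -0.11, edgeR adjusted p = 0.00748) and COL4A1 was not called (0.0541). With the 4 libraries of lane 6 alone, 0 receptor genes were called lower in the knockdown by edgeR (1 at an unadjusted p under 0.05, Ddr1, adjusted p = 0.0607), against 1 by DESeq2 on all 6 libraries.

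In co-culture, counts of changed collagen genes followed the level and fold asked for. At 1 CPM, 12 were changed in 4T1 (10 higher), 3 were higher in Bend3 with 4T1, and 11 were changed in Bend3 with EMT6.5 (7 higher, 4 lower). At 20 CPM, 2 were higher in 4T1, 2 changed in Bend3 with 4T1 (0 higher) and 1 in Bend3 with EMT6.5 (0 higher). At 1.5-fold, 13 were changed in EMT6.5 (8 higher, 5 lower), 7 in Bend3 with 4T1 (3 higher), and 5 were higher in Bend3 with EMT6.5. With carried-over RNA taken off, 0 were higher in Bend3 with either partner, and 1 was changed with EMT6.5. Col6a1 with 4T1 dropped out because it was then under 5 CPM. Col6a1 and Col1a2 gave no ratio with EMT6.5, since the carried-over level was above the level seen. The carried-over share was 0.783%, 0.0% and 1.80% in 4T1, EMT6.5 and Bend3 with 4T1 for genes at 20 CPM in the partner and 0.1 CPM in the host. Against the partner's monoculture it was 1.21%, 0.526%, 1.27% and, in Bend3 with EMT6.5, 1.07%. As a ratio of sums it was 1.94% in 4T1, 1.65% in EMT6.5 and 1.62% in Bend3 with EMT6.5. Depth sets the floor there: 3 counts were 0.391 to 0.703 CPM.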

Other observations

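Collagen levels of 4T1 differed between the co-culture set and the knockdown controls. Col12a1 was at 3.95 CPM in 4T1 alone and at 69.9 to 77.4 CPM in the shSCR libraries, Col7a1 at 38.1 CPM and 322 to 328 CPM, and Col8a1 at 606 CPM and 229 to 232 CPM. Col4a1 was at 311 CPM and 552 to 563 CPM, while Col6a1 was at 16.5 CPM and 16.2 to 19.3 CPM. The sets were counted separately, and the shSCR cells carry a vector, so these values were set side by side with no test. Col7a1 and Col8a1 were chosen after their values were seen.

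Col25a1 and Col26a1 had 0 counts in all mouse libraries of both sets.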
